A study of Rattus norvegicus with 141 samples.

Results

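Striated muscle genes were followed through libraries made from pieces of rat stomach. The set was named as 10 genes and matched by gene symbol in the deposited gene tables, which hold 30562 genes each. Of these, 9 had a row under the symbol given, and Mylpf was found as Myl11, which RefSeq lists with Mylpf as a synonym, so 10 of 10 were measured. Trdn and C16h10orf71 entered the set because their stomach levels were lowest at 5 mg/kg in these same libraries. The stomach levels at 5 mg/kg are therefore given below as a description with no test.

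All groups shared strain, genotype and diet: the rats were Sprague-Dawley, wild type, adult, male or female, and ate standard chow. They received vehicle, microplastics at 5 mg/kg (low dose) or microplastics at 50 mg/kg (high dose). Stomach gave 48 libraries of polyadenylated RNA, 8 for each combination of sex and dose; 47 libraries came from duodenum and 46 from liver. Each sample pooled a handful of small frozen tissue fragments in varying mass, and the homogenizer was rinsed within a treatment but taken apart and brushed only between treatments. The labels do not state which part of the stomach was taken, nor which libraries come from separate animals, so p-values measure the spread between these libraries only.

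Striated muscle contracts when depolarisation of the cell membrane opens calcium release channels in the sarcoplasmic reticulum, and calcium then binds troponin on the actin thin filament and lets myosin pull. Skeletal fibres carry their own forms of actin, troponin, myosin light chain and creatine kinase, and fast fibres differ from slow fibres in which form they make. The stomach wall is moved by smooth muscle, which has other actin genes and no troponin, whereas the oesophagus of the rat, which joins the stomach, is walled by striated muscle. The 10 genes cover calcium release (Trdn, Ryr1), the Z-disc (C16h10orf71, Actn3), the thin filament and its calcium switch (Acta1, Tnnt3, Tnni2, Tnnc2), the fast myosin light chain (Myl11, also called Mylpf) and energy supply (Ckm).

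As background, the upstream sequence of 3 of these genes is shown, read from RefSeq on the build GRCr8, which is not the build of the count tables (mRatBN7.2). Each run is the 250 bases before the annotated start, 5′ to 3′ along the gene. It lies at chr1:88189211-88189460 (plus strand) for Ckm, chr19:68784195-68784444 (minus strand) for Acta1 and chr1:26229600-26229849 (minus strand) for Trdn. Capitals mark matches on either strand to the E-box CANNTG, the motif of myogenic helix-loop-helix factors, or to the CArG box, the motif of serum response factor, and no match of one overlapped the other.
Ckm: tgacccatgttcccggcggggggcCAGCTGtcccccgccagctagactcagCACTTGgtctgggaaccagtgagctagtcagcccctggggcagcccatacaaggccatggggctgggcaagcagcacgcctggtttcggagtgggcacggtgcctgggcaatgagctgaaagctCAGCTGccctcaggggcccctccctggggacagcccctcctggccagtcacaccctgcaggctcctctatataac
Acta1: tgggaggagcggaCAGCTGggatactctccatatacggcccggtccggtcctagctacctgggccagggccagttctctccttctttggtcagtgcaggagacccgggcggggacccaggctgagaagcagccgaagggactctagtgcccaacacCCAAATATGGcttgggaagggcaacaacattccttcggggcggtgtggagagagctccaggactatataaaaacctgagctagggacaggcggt
Trdn: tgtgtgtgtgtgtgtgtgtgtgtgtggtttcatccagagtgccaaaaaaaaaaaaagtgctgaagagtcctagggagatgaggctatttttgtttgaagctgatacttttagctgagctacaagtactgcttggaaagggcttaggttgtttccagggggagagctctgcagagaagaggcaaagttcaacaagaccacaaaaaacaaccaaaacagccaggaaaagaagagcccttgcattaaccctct
Promoters were in the table for 9 of the 10 genes. An E-box was present in 6 of these 9, with 3 matches each upstream of Ckm and Tnnc2 and 0 upstream of Trdn, C16h10orf71 and Actn3. The same letters occurred in 65.5% of all 33469 promoters of that length. A CArG box was found in 1 of the 9, upstream of Acta1, against 1.5% of all promoters. The MEF2 motif was found in 0 of the 9 and in 1.68% of all promoters. No match says only that these letters are not in this window.

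Before any comparison, 3 stomach libraries of the vehicle group stood apart. Male vehicle replicate 2 (batch 2), female vehicle replicate 3 (batch 1) and male vehicle replicate 3 (batch 3) had summed levels of the 10 genes of 1989, 1885 and 1175 CPM (counts relative to library size, scaled within the tissue), while the median over all 48 libraries was 102 CPM. The next highest were male 5 mg/kg replicate 2 with 804 CPM, female 5 mg/kg replicate 2 with 596 CPM and male 50 mg/kg replicate 2 with 560.0 CPM. The sum ran from 67.5 to 1989 CPM with a median of 118 in vehicle, from 44.2 to 804 with a median of 88.9 at 5 mg/kg, and from 66.9 to 560.0 with a median of 129 at 50 mg/kg (n = 16 each). The groups overlapped, and their medians lay close together while their highest libraries did not. The 3 vehicle libraries held from 24.4% (C16h10orf71) to 54.6% (Myl11) of each gene's summed CPM over the 48 libraries, and from 48.5% to 84.0% of it over the 16 vehicle libraries. Results that rest on them are given with and without them. They were picked for the largest sums of these same genes and all belong to the vehicle group, while the rich dosed libraries stay in, so leaving them out brings the changes nearer to 0 by construction; the values without them show how much of a change these libraries carry and are no test of it. Male replicate 2 had the largest sum among the male libraries of each dose group. Total estimated counts in stomach ranged from 4947830 to 23940200 per library, and in bulk tissue fewer striated fibres and less RNA per fibre cannot be told apart.

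**Figure D1:**
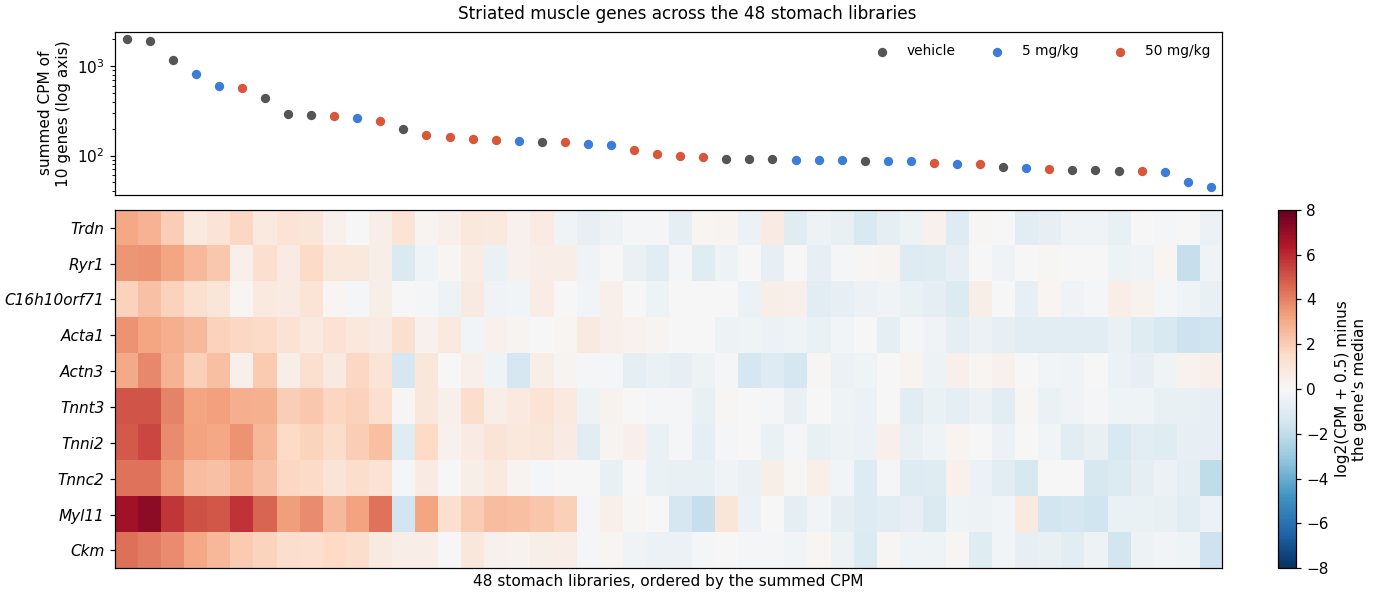
The upper panel shows the summed CPM of the 10 genes in each of the 48 stomach libraries on a log axis, coloured by dose and ordered from high to low; the lower panel shows each gene's log2(CPM + 0.5) minus its own median in the same order. The 3 libraries at the left, all vehicle, are high for all 10 genes, with sums of 1989, 1885 and 1175 CPM.

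Trdn encodes triadin, a protein of the sarcoplasmic reticulum that anchors calsequestrin beside the calcium release channel in skeletal and cardiac muscle. Its CPM ran from 0.898 to 27.3 with a median of 4.66 in vehicle, from 1.09 to 6.48 with a median of 1.94 at 5 mg/kg, and from 1.48 to 9.90 with a median of 3.25 at 50 mg/kg. Of the 16 libraries at 5 mg/kg 14 lay below the vehicle median, as did 13 of 16 at 50 mg/kg, although every dose overlapped the vehicle range. The fitted log2 change was -1.58 ± 0.38 (standard error, here and below) at 5 mg/kg and -0.995 ± 0.35 at 50 mg/kg, both against the same 16 vehicle libraries. Without the 3 vehicle libraries the changes were -0.68 and -0.11, and the median of the remaining 13 vehicle libraries was 3.33 CPM. By median, Trdn was lowest at 5 mg/kg with or without these libraries, which restates how it was chosen.

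C16h10orf71 is the rat counterpart of the human gene C10orf71, whose product is known in mouse heart as a Z-disc protein that binds FHL2. It was thinly counted, with 2 to 89 estimated counts per stomach library. Its CPM ran from 0.674 to 7.91 with a median of 1.82 in vehicle, from 0.273 to 3.51 with a median of 0.871 at 5 mg/kg, and from 0.481 to 2.26 with a median of 1.17 at 50 mg/kg. Below the vehicle median lay 14 of 16 libraries at 5 mg/kg and 15 of 16 at 50 mg/kg, and the ranges overlapped. The log2 change was -1.31 ± 0.31 at 5 mg/kg and -1.03 ± 0.29 at 50 mg/kg. Without the 3 vehicle libraries these values were -0.70 and -0.45. In batch 1 the C16h10orf71 medians were 1.07 CPM in vehicle, 1.04 at 5 mg/kg and 1.31 at 50 mg/kg. In batch 2 they were 1.82, 0.583 and 1.10 CPM.

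Ryr1 encodes the calcium release channel of skeletal muscle, which triadin binds. In CPM it ran from 3.48 to 107 with a median of 8.82 in vehicle, from 1.99 to 54.6 with a median of 8.37 at 5 mg/kg, and from 4.01 to 15.6 with a median of 7.77 at 50 mg/kg. The medians differed little between doses, and the highest library at 50 mg/kg lay well below the highest vehicle library. Actn3 encodes the alpha-actinin of fast fibres, which crosslinks actin at the Z-disc. The level ran from 0 to 18.0 CPM with a median of 0.958 in vehicle, from 0 to 6.39 with a median of 0.853 at 5 mg/kg, and from 0.283 to 2.22 with a median of 0.679 at 50 mg/kg. It was at 0 in 2 vehicle and 2 low-dose libraries.

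Acta1, skeletal alpha-actin, is the core of the thin filament; because the actin genes are close copies of each other, its estimated counts may hold reads of the smooth muscle and cardiac actins and are less certain. Acta1 CPM ran from 30.3 to 678 with a median of 55.5 in vehicle, from 18.0 to 353 with a median of 46.5 at 5 mg/kg, and from 28.6 to 179 with a median of 64.9 at 50 mg/kg. Its median at 50 mg/kg was thus above that of vehicle, although the fitted change, which follows the means, was negative at -1.12 ± 0.40. The fast troponins sit on the thin filament: Tnnt3 holds the complex on tropomyosin, Tnni2 blocks myosin binding and Tnnc2 binds calcium. Tnnt3 had a median of 8.44 CPM in vehicle (4.19 to 276), 7.07 at 5 mg/kg (4.08 to 81.1) and 9.16 at 50 mg/kg (5.02 to 63.0). Tnni2 had a median of 5.06 CPM in vehicle (2.11 to 237), 5.14 at 5 mg/kg (2.53 to 55.0) and 7.10 at 50 mg/kg (2.76 to 70.2). Tnnc2 had a median of 6.55 CPM in vehicle (2.58 to 153), 6.60 at 5 mg/kg (1.31 to 41.5) and 7.15 at 50 mg/kg (3.37 to 50.3). For all 3 troponins the median at 50 mg/kg was above the vehicle median and the highest library was a vehicle library.

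Myl11 encodes the regulatory light chain of fast myosin. Myl11 CPM ran from 0.107 to 255 with a median of 2.18 in vehicle, from 0.469 to 59.9 with a median of 0.990 at 5 mg/kg, and from 0 to 97.9 with a median of 2.68 at 50 mg/kg. It was above 10 CPM in 6 of 16 vehicle libraries, 3 of 16 at 5 mg/kg and 4 of 16 at 50 mg/kg, and below 1 CPM in 6, 8 and 6, so in every dose group some libraries were rich in it and others nearly lacked it. The cut of 10 CPM was chosen after seeing the data. Ckm encodes muscle creatine kinase, which regenerates ATP from phosphocreatine. Ckm CPM ran from 5.90 to 371 with a median of 20.8 in vehicle, from 5.24 to 151 with a median of 16.9 at 5 mg/kg, and from 8.47 to 76.2 with a median of 17.0 at 50 mg/kg.

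**Figure D2:**
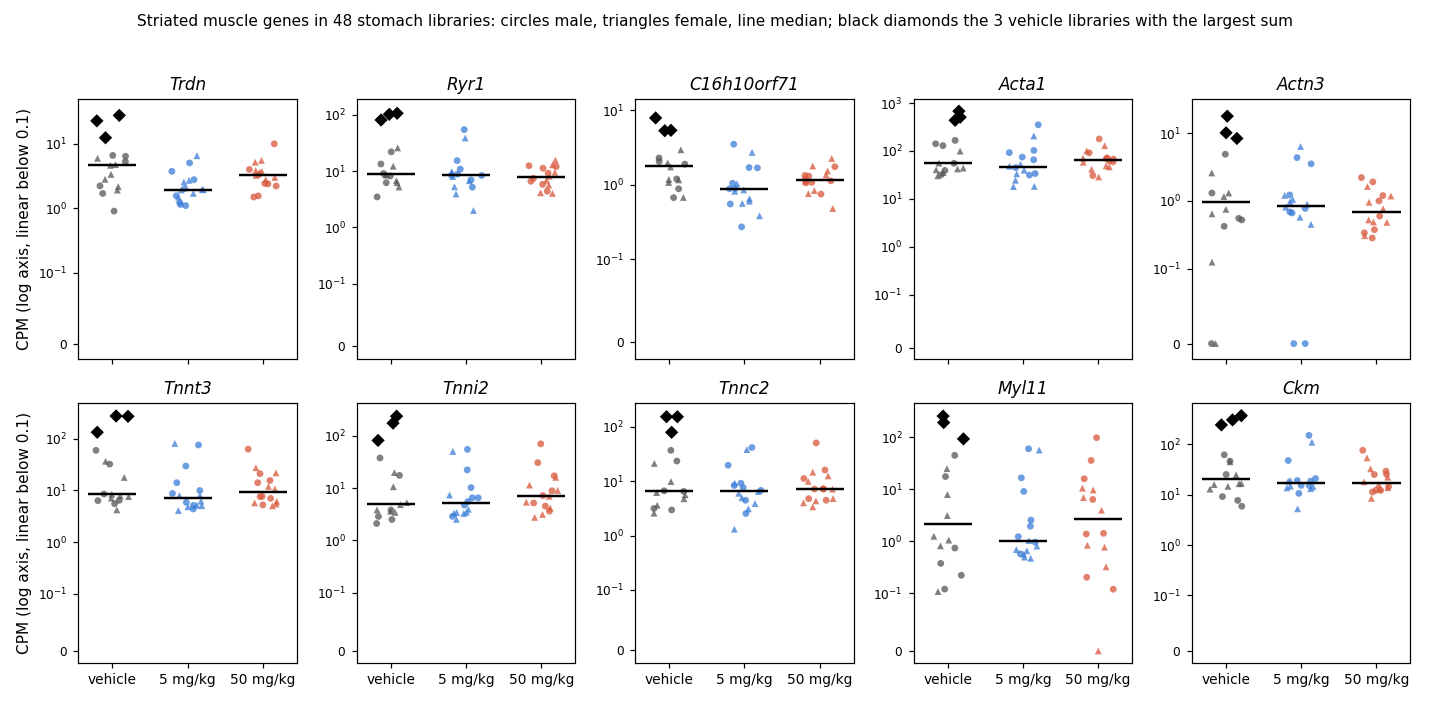
Each panel shows the CPM of a gene in the 48 stomach libraries by dose (log axis, linear below 0.1), with circles for males, triangles for females, a line at the median and black diamonds for the 3 vehicle libraries with the largest sum. The diamonds lie at the top of the vehicle column in every panel, and for Trdn and C16h10orf71 the medians at 5 mg/kg (1.94 and 0.871 CPM) are also below those of vehicle (4.66 and 1.82 CPM).

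At 50 mg/kg against vehicle, 5 of the 10 genes were called lower and 0 higher by edgeR's quasi-likelihood test with Benjamini-Hochberg adjustment over 15140 genes, at an adjusted p under 0.05. Over all genes tested 4.49% were called in either direction and 1.84% were called lower. Ryr1 was 3.25-fold lower (log2 change -1.70 ± 0.41, adjusted p = 0.0218). Tnnt3 was 4.04-fold lower (-2.01 ± 0.59, adjusted p = 0.0411), Ckm 3.24-fold (-1.70 ± 0.50, adjusted p = 0.0429) and Actn3 3.59-fold (-1.84 ± 0.57, adjusted p = 0.0495). Of 12 alternative settings Ryr1 kept its call in 8, and Tnnt3, Ckm and Actn3 in 2 each, DESeq2 and its size factors. With single libraries left out the call was lost in 2 of 48 refits for Ryr1, 16 for Tnnt3, 18 for Ckm and 32 for Actn3. The call also covers C16h10orf71, which was picked with these vehicle libraries in view, so no p is given for it or for Trdn. All 10 were picked with results on these vehicle libraries known, so the other p-values are not independent support either. Those not called were Acta1 (-1.12 ± 0.40), Myl11 (-2.16 ± 0.91), Tnnc2 (-1.67 ± 0.55) and Tnni2 (-1.72 ± 0.63), with adjusted p from 0.0671 (Tnnc2) to 0.139 (Myl11), and Trdn. The log2 change was negative for 10 of 10, with a median of -1.70 beside -0.00585 over all genes tested.

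With the 3 rich vehicle libraries left out, a choice made on these same levels, 0 of 10 were called, 0 also at an unadjusted p under 0.05, and the log2 changes ran from -0.49 (Ryr1) to 0.25 (Tnni2), with 8 of 10 negative and a median of -0.16. Leaving out male vehicle replicate 2 alone, or male 50 mg/kg replicate 4 alone, left 0 called, and leaving out female vehicle replicate 3 alone left 1. The batches were spread unevenly over the doses, with 7, 8 and 1 vehicle libraries, 4, 8 and 4 low-dose libraries and 5, 8 and 3 high-dose libraries in batches 1, 2 and 3. Within batch 1 the log2 changes at 50 mg/kg were negative for 10 of 10 with a median of -1.58, and within batch 2 for 10 of 10 with a median of -0.63, with 0 called in either and 2 at an unadjusted p under 0.05 in each. Both batches hold a rich vehicle library, female vehicle replicate 3 in batch 1 and male vehicle replicate 2 in batch 2. In batch 2 the median CPM at 50 mg/kg was above that of vehicle for Acta1 (68.4 against 49.0), Tnnt3, Tnni2, Tnnc2 and Myl11. It was below for Trdn (3.49 against 4.66), C16h10orf71, Ckm, Ryr1 and Actn3. In batch 1 the medians of Trdn and C16h10orf71 at 50 mg/kg lay above those of vehicle, although the fitted changes were negative. For Trdn and C16h10orf71 the order of the medians thus differed between the batches. Batch 3 holds 1 vehicle library, male vehicle replicate 3, and gave no value of its own. Without a batch term in the fit 0 of the 10 genes, and 4 of all genes, were called.

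At 5 mg/kg the fit is given without p, since the set was chosen on these libraries. The log2 change from vehicle was negative for 10 of 10, from -3.06 ± 1.00 (Myl11) to -1.29 ± 0.55 (Actn3), with a median of -1.67. The same fit called 0% of all 15140 genes at this dose (909 had an unadjusted p under 0.05), while DESeq2 called 28 of all genes. Without the 3 vehicle libraries the changes ran from -0.97 (Myl11) to 0.19 (Actn3), with 9 of 10 negative and a median of -0.36. Trdn (-0.68), C16h10orf71 (-0.70) and Tnnt3 (-0.64) then lay next to Myl11 at the low end. Within batch 1 the median was -1.28 and within batch 2 it was -1.64, with 10 of 10 negative in each, and both batches hold a rich vehicle library. Between the doses, 50 against 5 mg/kg, the log2 changes ran from -0.55 ± 0.60 (Actn3) to 0.90 ± 1.03 (Myl11) with a median of 0.27, where 0.707% of all genes were called. Trdn (0.59 ± 0.38) and C16h10orf71 (0.27 ± 0.32) were higher at 50 than at 5 mg/kg by the fit. In batch 2 alone the median was 0.99, above 0 for 10 of 10, and in batch 1 it was 0.14, with 7 of 10 above 0, which are descriptions with the 5 mg/kg libraries in both.

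**Figure D3:**
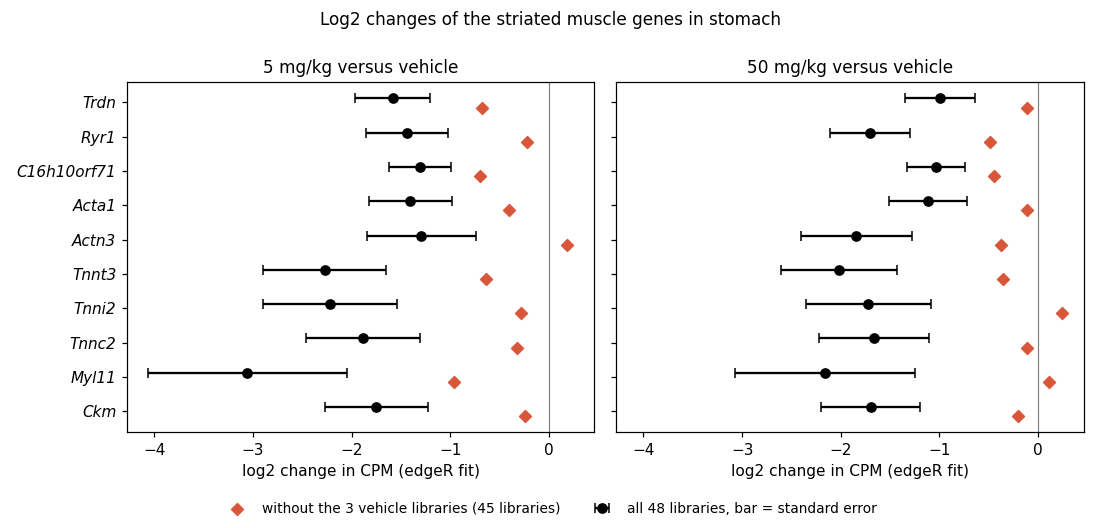
The horizontal axis gives the log2 change in CPM from vehicle at 5 mg/kg (left) and 50 mg/kg (right) for each gene; black circles with standard errors are the fit over all 48 stomach libraries and red diamonds the fit without the 3 vehicle libraries. The circles lie between -3.06 and -0.995, while the diamonds lie between -0.97 and 0.25.

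The sexes were compared by contrasts that the choice of the genes did not use, but on the same stomach libraries. The interaction at 5 mg/kg rests on the libraries that chose Trdn and C16h10orf71, so for these genes its counts are a description. In vehicle rats 0 of 10 differed between females and males by edgeR, 0 at an unadjusted p under 0.05 and 0 by DESeq2 or limma voom, where 0.172% of all genes were called. The female-minus-male log2 difference ran from -0.84 ± 0.59 (Acta1) to 0.06 ± 0.40 (C16h10orf71). Acta1 had a median of 43.1 CPM (30.3 to 508) in the 8 female vehicle libraries and 135 CPM (32.2 to 678) in the 8 male ones, with overlapping ranges. Within batch 2, 8 of 10 had an unadjusted p under 0.05 and 0 an adjusted one; the summed level there was 67.5, 195, 289.8 and 1989 CPM in 4 male vehicle libraries and 74.7, 90.3, 92.2 and 143 CPM in 4 female ones. Within batch 1 the counts were 2 and 0. The dose response did not differ detectably between sexes either, with 0 of 10 called for the interaction at 5 mg/kg and 0 of 10 at 50 mg/kg, 0 in each at an unadjusted p under 0.05 and 0 by DESeq2 or limma voom; each interaction called 0% of all genes (435 and 1187 at an unadjusted p under 0.05). The standard errors of these interactions were wide, from 0.59 (C16h10orf71 at 50 mg/kg) to 1.89 (Myl11 at 5 mg/kg) in log2, so a moderate difference between sexes was not detectable.

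The other tissues carried far less of most of these genes. Tissues were scaled separately, so the levels are set side by side with no test. In duodenum the summed level was 16.1 to 51.1 CPM with a median of 25.7 (n = 47), and in liver 1.99 to 9.94 CPM with a median of 4.42 (n = 46). Trdn was at 0 in 33 of 47 duodenum and 41 of 46 liver libraries, and its highest values there were 0.258 and 0.110 CPM, against a lowest value of 0.898 in stomach. Tnnc2 had a highest value of 0.560 CPM in duodenum against a lowest of 1.31 in stomach, so these ranges did not overlap. Tnni2 had medians of 5.45 CPM in stomach, 0.339 in duodenum and 0.0889 in liver. Ryr1 (8.47, 6.22 and 3.71 CPM) and C16h10orf71 (1.15, 0.928 and 0 CPM) came closest between stomach and duodenum, with ratios of medians of 1.36 and 1.24, while that ratio was 4.12 (Myl11) to 16.1 (Tnni2) for the other genes with a duodenum median above 0. The highest duodenum sum, 51.1 CPM, was far below the 1175 CPM of the lowest of the 3 rich stomach libraries.

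**Figure D4:**
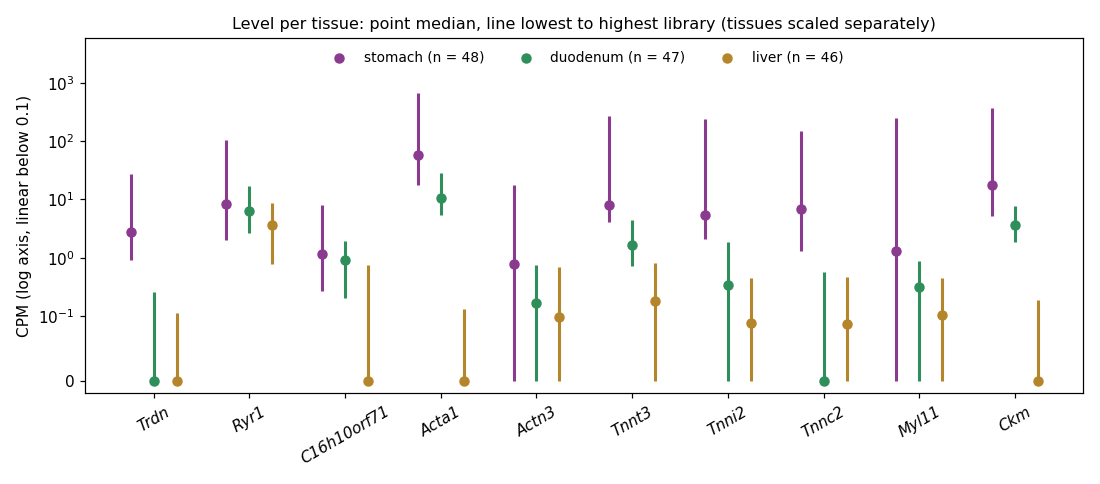
The vertical axis gives CPM (log axis, linear below 0.1) for each gene in stomach (n = 48), duodenum (n = 47) and liver (n = 46); points are medians and lines run from the lowest to the highest library. The stomach lines are long and reach far above the duodenum lines, most of all for Myl11 (0 to 255 CPM in stomach), while Ryr1 has similar medians in stomach and duodenum (8.47 and 6.22 CPM).

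In duodenum 5 of the 10 passed the filter on low counts (C16h10orf71, Ckm, Acta1, Tnnt3 and Ryr1), and at 50 mg/kg 1 of them, Ryr1, was called lower, where 16.3% of all 15189 genes were called and 7.58% were called lower. Ryr1 CPM ran from 4.20 to 17.1 with a median of 7.25 in 15 vehicle libraries, from 3.02 to 10.8 with a median of 6.05 in 16 at 5 mg/kg, and from 2.69 to 7.96 with a median of 5.08 in 16 at 50 mg/kg. The groups overlapped, and the log2 change at 50 mg/kg was -0.50 ± 0.16 (1.41-fold lower, adjusted p = 0.0337 by edgeR). It was -0.19 within batch 1 and -0.78 within batch 2 and was called in neither, and the call was lost with limma voom (-0.28, adjusted p = 0.209). Tnnt3 (-0.33 ± 0.23), Acta1 (-0.20 ± 0.19), Ckm (0.06 ± 0.16) and C16h10orf71 (0.30 ± 0.23) were not called. At 5 mg/kg 0 of the 5 were called in duodenum by edgeR, 0 at an unadjusted p under 0.05 and 0 by DESeq2 or limma voom, with changes from -0.30 ± 0.16 (Ryr1) to -0.07 ± 0.24 (C16h10orf71); 0% of all genes were called there (2132 at an unadjusted p under 0.05). In liver only Ryr1 passed the filter; its change was 0.27 ± 0.20 at 5 mg/kg and 0.14 ± 0.22 at 50 mg/kg, not called by edgeR, DESeq2 or limma voom, where 0% of all genes were called at either dose (272 and 446 at an unadjusted p under 0.05).

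Other striated muscle genes of stomach, from lists of contraction, calcium handling, metabolism and regulator genes without the 10, were counted in the same fit at 50 mg/kg. Of 56 tested, 15 were called lower (1.84% of all genes were) and 0 higher, 50 had a negative log2 change and the median was -1.05, beside -0.00585 over all genes. The lists were chosen with earlier results of these data known and rest on the same vehicle libraries. Their calls and p-values are therefore not independent support. In the contraction list 9 of 30 tested were called lower, including Neb, a ruler of the thin filament (-1.72 ± 0.40, adjusted p = 0.0216), Myom3 and Myom2 of the M-band (-2.19 ± 0.58 and -1.65 ± 0.45), Cmya5 (-2.67 ± 0.72) and Nrap (-2.56 ± 0.74). In the calcium list 1 of 10 was called, Cacna1s, the voltage sensor that opens Ryr1 (-2.76 ± 0.79, adjusted p = 0.0383). In the metabolism list 4 of 10 were called: Ckmt2, the mitochondrial creatine kinase (-3.00 ± 0.81), Pgam2 (-2.57 ± 0.79), and with small changes Phka1 (-0.25 ± 0.06) and Pfkm (-0.25 ± 0.07), which are also made outside striated muscle. In the regulator list 1 of 6 was called, Trim54, a ubiquitin ligase of the sarcomere (-2.15 ± 0.61). Without the 3 vehicle libraries, which were also rich in these genes (2663 to 4074 CPM summed over the contraction list, against a median of 142 CPM in the other 45), 0 of the 56 were called lower, and within batch 1 or batch 2 alone 0 were called. The count was 0 also without male 50 mg/kg replicate 4, 1 without male vehicle replicate 2 and 3 without female vehicle replicate 3. Of 4 cardiac genes tested 1 was called lower, Actc1 (-3.04 ± 0.91). In duodenum at 50 mg/kg 2 of 30 striated list genes tested were called, where 16.3% of all genes were, Smpx higher (0.87 ± 0.25) and Hrc lower (-0.71 ± 0.23). Of 45 markers of heart and other tissues tested there, 2 were called, Uchl1 higher (0.49 ± 0.14) and Cidec lower (-0.71 ± 0.24); in liver 0 list genes were called at either dose.

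The fibre types in the rich libraries were read from defining genes. Myh2, the myosin of fast oxidative fibres, has 2 rows of the same symbol, and the larger (ENSRNOG00000065740) stood at 349, 169 and 188 CPM in male vehicle replicate 2, female vehicle replicate 3 and male vehicle replicate 3, against a median of 5.31 CPM in the other 45 libraries. Myh7, the slow and cardiac myosin, stood at 7.03, 0.411 and 0.909 CPM there against 0.117 CPM, with up to 13.2 CPM in another library. Mb, the oxygen store myoglobin, stood at 237, 199 and 130 CPM against 0.919 CPM, and Actc1, an actin of heart and of developing or regenerating skeletal muscle, at 225, 198 and 137 CPM against 1.19 CPM. The heart genes Myh6 (0.567, 0.822 and 1.21 CPM, against 0.467) and Tnni3 (0.227, 0.308 and 0.0606 CPM, against 0.0935) did not share this pattern. The myoblast factors were near 0 everywhere, with at most 0.308 CPM for Myod1, 0.719 CPM for Myog and 0.173 CPM for Pax7. Slow troponin Tnni1 stood at 20.6, 14.3 and 14.2 CPM against 1.00, and Tnnt1 at 16.1, 5.96 and 6.97 CPM against 0.406. Tnnc1, shared by slow and cardiac muscle, stood at 7.71, 2.98 and 3.03 CPM against 0.769. Casq1, the fast calsequestrin, stood at 31.98, 27.7 and 17.8 CPM against 2.62, and Pvalb, a calcium buffer of the fastest fibres, at 0.454, 0.617 and 0.545 CPM against 0.585. Myh1, Myh4, Myl1 and Atp2a1 had no row under these symbols and are named only. A row under the symbol Myl1_v1 was measured and is named below among the genes nearest to Myl11 and Tnni2. The lists, matched by exact symbol, did not include it.

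Markers of the other tissues that a stomach piece can hold are given beside these results. Smooth muscle markers, 12 of 12 tested, had 0 called at 5 or 50 mg/kg with median log2 changes of 0.08 and 0.13, and their summed level was 14935 to 39687 CPM in vehicle, 8933 to 29460 at 5 mg/kg and 18511 to 29674 at 50 mg/kg. In the 3 rich vehicle libraries that sum was 17825, 18213 and 14935 CPM, below the median of 20290 CPM in the other 45. Actg2, the enteric smooth muscle actin, had medians of 3024, 3630 and 3501 CPM in vehicle, 5 and 50 mg/kg, and Acta2 1753, 1999 and 1956 CPM. Des, the desmin of all muscle, had medians of 1271, 1581 and 1641 CPM. Squamous forestomach markers, 11 tested, had summed levels of 1827 to 5237 CPM in vehicle, 771 to 3625 at 5 mg/kg and 1714 to 5708 at 50 mg/kg; all 11 were lower at 5 mg/kg by the fit with 0 called (median -0.45), and Calml3 (0.75 ± 0.17) and Krtdap (0.91 ± 0.23) were called higher at 50 than at 5 mg/kg. With no batch term, without batch 3 or within either batch 0 of all genes were called in that contrast, so both calls were lost. Krt5 had medians of 167, 129 and 210 CPM and Krt13 985, 709 and 978 CPM. The glandular list had 0 of 13 called, with sums of 96125 to 166232, 90264 to 240441 and 82280 to 153210 CPM, and the list of enteric neurons, glia and pacemaker cells 0 of 9, with sums of 170 to 225, 158 to 245 and 156 to 225 CPM. The adipocyte list had 0 of 6 called, with sums of 39.9 to 166, 56.8 to 170 and 49.3 to 240 CPM. The pancreatic acinar list had 0 of 7 called, but its sum reached 8145 CPM at 5 mg/kg and 1294 CPM at 50 mg/kg against 162 CPM at most in vehicle. Which pieces of tissue went into each library was not recorded in the labels, and the part of these tissues in the changes was not tested.

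Across the 48 stomach libraries the 10 genes ranked the libraries in a similar order. Spearman's correlation of log2 CPM between pairs of them ran from 0.433 to 0.857 with a median of 0.661 over 45 pairs; the points share library, depth and the ground pieces. The standard deviation of log2 CPM was from 0.84 (C16h10orf71) to 2.75 (Myl11), where the median gene had 0.28, and each of the 10 was more variable than at least 95.9% of genes. Correlation with Actg2 was weak, from -0.23 (C16h10orf71) to 0.32 (Acta1). The 10 genes most like the summed level were Acta1 (0.958), Actn2 (0.912), Ckm (0.889), the larger Myh2 row (0.874), Actc1 (0.873), Casq1 (0.873), Tnnt3 (0.872), H19 (0.872), the other Myh2 row (0.857) and Myom3 (0.847). Acta1, Ckm and Tnnt3 are part of that sum. H19 is an imprinted noncoding RNA that skeletal muscle keeps making after birth, Ckm encodes an enzyme and Casq1 a calcium store protein, and the rest encode sarcomere proteins.

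The nearest genes in rank were read for each gene, and H19, Actc1, Myh2 and Myh8 recurred among them. The lists depend on the measure: from 1 (Tnnt3, Tnni2) to 4 (Trdn, Actn3) of the 5 were shared with those by Pearson's correlation, and from 1 (Trdn, Tnnt3, Myl11) to 4 (Actn3) with those by residuals of the fit. For Trdn these were H19 (0.815), Myoz2 (0.803), Klhl41 (0.802), Mybpc1 (0.786) and Myh8 (0.757), and for C16h10orf71 Nrap (0.724), Cmya5 (0.701), Mybpc1 (0.678), Trim72 (0.673) and Klhl41 (0.666). The nearest to Ryr1 were Mypn (0.837), Myh2 (0.810), Alpk3 (0.792), Neb (0.781) and AABR07005775.1 (0.765). For Myl11 they were Myl1_v1 (0.929), Actc1 (0.909), Ttn (0.901), Xirp2 (0.899) and Myh8 (0.897), and for Tnni2 Ckmt2 (0.881), Actc1 (0.875), Myh2 (0.875), Myl1_v1 (0.861) and Xirp2 (0.856). Tnnt3 was nearest to H19 (0.884), Mb (0.872), Cmya5 (0.866), Myh8 (0.859) and Actc1 (0.858). Ckm was nearest to H19 (0.883), Cacna1s (0.858), Tnnc2 (0.857), Csrp3 (0.850) and Myh2 (0.846), and Tnnc2 to Cacna1s (0.864), Ckm (0.857), Casq1 (0.799), Apobec2 (0.794) and Tnni2 (0.784). Acta1 was nearest to Actn2 (0.887), Casq1 (0.858), Cav3 (0.853), Eno3 (0.841) and Myh2 (0.818). Actn3 had the weakest likeness of the fast fibre genes, with RGD1565323 (0.784), C2h4orf54 (0.773), Txlnb (0.758), Sim2 (0.748) and Ckmt2 (0.738), and C16h10orf71 had the weakest of all 10.

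The rich libraries also differed in which transcripts carried the counts, as the deposited transcript table assigns them; such assignments are estimates from short reads. Trdn has 4 transcripts there. ENSRNOT00000090388 held 47.4% of the Trdn count in the 3 vehicle libraries and 18.5% in the other 45, with 117, 112.6 and 84.8 estimated counts in male vehicle replicates 2 and 3 and female vehicle replicate 3. ENSRNOT00000042072 had a count of 0 in all 3 of these libraries and 23.2% of the Trdn count in the other 45, up to 64.5 of 70 counts in male vehicle replicate 4. In female vehicle replicate 7 all 20 Trdn counts were given to ENSRNOT00000042072. The remaining transcripts, ENSRNOT00000092757 (36.8% and 39.5%) and ENSRNOT00000093030 (15.8% and 18.8%), had similar shares in both sets of libraries. ENSRNOT00000042072 had a count in 18 of the 48 libraries and ENSRNOT00000090388 in 17.

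For C16h10orf71, ENSRNOT00000098917 held 88.7% of the count in the 3 libraries and 65.4% in the others, which pool vehicle and dosed libraries. By dose it held 87.2% in vehicle, 58.3% at 5 mg/kg and 56.5% at 50 mg/kg. Vehicle as a whole was near the 3 libraries, but it includes them, so this nearness is partly built in. Whether the higher share is particular to the 3 libraries was not tested. Counts were thin, and this transcript had a count in 32 of the 48 libraries. Tnnt3 has 6 transcripts, and ENSRNOT00000080339 held 1.16% of its count in the 3 libraries and 9.06% in the others; its CPM was the only Tnnt3 transcript level that ran against Myl11 across libraries (Spearman -0.39). ENSRNOT00000066135 of Tnnt3 held 42.0% and 25.6% and ran with Myl11 (0.89). For Tnni2, ENSRNOT00000076187 held 81.5% and 70.7%. Ckm, Acta1 and Actn3 have 1 transcript each in the table, and the main transcripts of Myl11 (99.8% and 99.3%) and Ryr1 (98.1% and 93.3%) held most of the count in both sets of libraries.

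**Figure D5:**
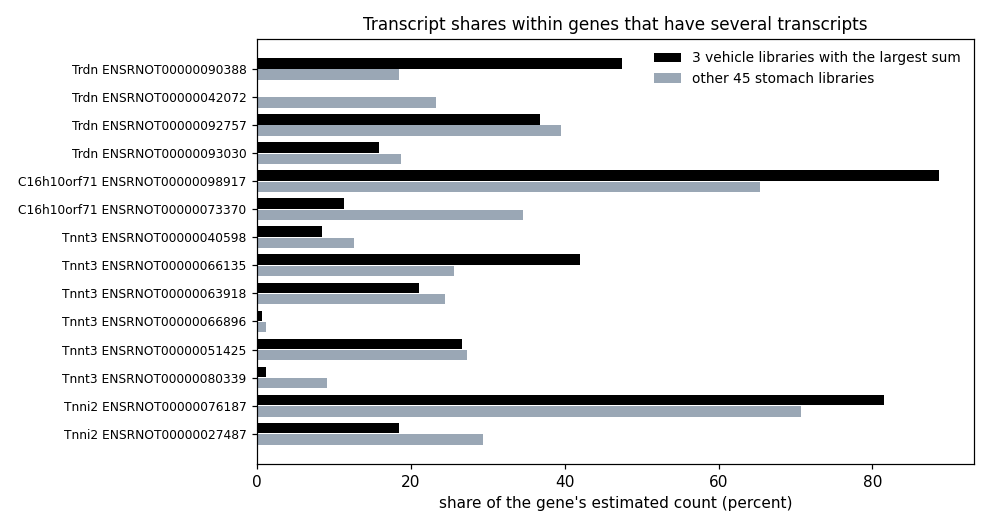
Bars give the share of the estimated count on each deposited transcript of Trdn, C16h10orf71, Tnnt3 and Tnni2, in percent of the gene, pooled over the 3 vehicle libraries with the largest sum (black) and over the other 45 stomach libraries (grey). Trdn ENSRNOT00000042072 has no black bar and a grey bar of 23.2%, and C16h10orf71 ENSRNOT00000098917 has 88.7% against 65.4%. The grey bars pool the remaining vehicle libraries with all dosed libraries.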

How the data were processed

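RNA was measured in 141 libraries, grouped by tissue, sex, dose and batch as the labels give them. The authors deposited expected counts (estimated counts) per gene and transcript, in a table per tissue; the submitters' processing notes list Salmon 1.10.3, STAR 2.7.11b and build mRatBN7.2, without their roles. UMI-tools 1.1.5, Trim Galore 0.6.10 and cutadapt 4.9 are also listed. Settings, annotation and strand: not given in the sources used here. Assignment of reads between near-identical genes and between transcripts is an estimate and may blur actins and isoforms.

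Counts were rounded. Per tissue, genes were kept by filterByExpr (minimum count 10, total 15), scaled by TMM and fitted in edgeR 4.0.16 (R 4.3.3; glmQLFit, glmQLFTest) with sex by dose groups and batch; p-values were adjusted by Benjamini-Hochberg over all genes, with calls under 0.05. Standard errors are the log2 change over the root of F. CPM use the scaled library size; correlations use log2 CPM with a prior count of 2. Steps were tested on simulated data. Depth per stomach library was 4947830 to 23940200 estimated counts; C16h10orf71 and Actn3 are close to the low-count limit.

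The members and lists were chosen with earlier results of these data known. Named were all 10 genes, set fibre and tissue markers, up to 6 called genes per list and contrast with the smallest p, and the nearest 5 (for the sum, 10) genes by Spearman correlation. A gene that this rule names is not reported here. Alternatives were DESeq2 1.42.0, its size factors, limma 3.58.1 voom with quality weights, a robust fit, no filter, a block for the replicate number, a fit without batch, only the groups compared, single batches and each stomach library left out. Leaving out the 3 richest libraries or batch 3 was chosen after seeing the data, as was the cut of 10 CPM for Myl11. Figures used matplotlib 3.10.9 (Python 3.11.15).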

Additional observations from a re-analysis of the deposited data

Results flagged for a closer look

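Within each group of 8 stomach libraries of the same sex and dose, the highest or lowest library was set against the nearest of the others for each gene. A library far from the rest, by a gap that is large beside the range of the group, was found in 38 of 60 gene and group combinations. The cut flags about 5% by chance only for normally distributed values. These CPM are skewed towards high values, so the 38 cannot be set against that rate. The 10 genes also vary together, so the combinations are not separate findings. A rich library can also be hidden by another in its group, and male vehicle replicate 3 was not flagged beside male vehicle replicate 2. All 38 were high libraries, and 5 libraries account for them.

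Female vehicle replicate 3 stood far above its group for 10 of the 10 genes, with 22.5 CPM for Trdn (next highest of its group 5.90), 7.91 CPM for C16h10orf71 (next highest of its group 2.95), 306 CPM for Ckm (next highest of its group 45.1), 508 CPM for Acta1 (next highest of its group 99.4), 272 CPM for Tnnt3 (next highest of its group 36.7), 255 CPM for Myl11 (next highest of its group 24.8), 153 CPM for Tnnc2 (next highest of its group 21.1), 237 CPM for Tnni2 (next highest of its group 19.8), 107 CPM for Ryr1 (next highest of its group 25.9) and 18.0 CPM for Actn3 (next highest of its group 2.60). Male vehicle replicate 2 stood far above its group for 3 of the 10 genes, with 27.3 CPM for Trdn (next highest of its group 12.3), 276 CPM for Tnnt3 (next highest of its group 134) and 175 CPM for Tnni2 (next highest of its group 81.7). Female 5 mg/kg replicate 2 stood far above its group for 10 of the 10 genes, with 6.48 CPM for Trdn (next highest of its group 2.69), 2.73 CPM for C16h10orf71 (next highest of its group 1.03), 110.2 CPM for Ckm (next highest of its group 19.2), 206 CPM for Acta1 (next highest of its group 52.7), 81.1 CPM for Tnnt3 (next highest of its group 8.01), 56.6 CPM for Myl11 (next highest of its group 1.03), 37.9 CPM for Tnnc2 (next highest of its group 9.23), 50.3 CPM for Tnni2 (next highest of its group 7.38), 38.8 CPM for Ryr1 (next highest of its group 9.72) and 6.39 CPM for Actn3 (next highest of its group 1.21). Male 5 mg/kg replicate 2 stood far above its group for 8 of the 10 genes, with 3.51 CPM for C16h10orf71 (next highest of its group 1.71), 151 CPM for Ckm (next highest of its group 47.8), 353 CPM for Acta1 (next highest of its group 103), 75.9 CPM for Tnnt3 (next highest of its group 29.7), 59.9 CPM for Myl11 (next highest of its group 16.5), 41.5 CPM for Tnnc2 (next highest of its group 19.6), 55.0 CPM for Tnni2 (next highest of its group 22.3) and 54.6 CPM for Ryr1 (next highest of its group 15.4). Male 50 mg/kg replicate 2 stood far above its group for 7 of the 10 genes, with 9.90 CPM for Trdn (next highest of its group 3.97), 76.2 CPM for Ckm (next highest of its group 29.4), 179 CPM for Acta1 (next highest of its group 91.8), 63.0 CPM for Tnnt3 (next highest of its group 21.1), 97.9 CPM for Myl11 (next highest of its group 35.7), 50.3 CPM for Tnnc2 (next highest of its group 15.99) and 70.2 CPM for Tnni2 (next highest of its group 30.7). 

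The female 50 mg/kg group had no such library. The 5 libraries lie in all 3 dose groups, and 2 of them are vehicle libraries that the results at 50 mg/kg rest on. The cause of the high libraries was not tested.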

How the results depend on the processing

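At 50 mg/kg in stomach the 5 calls among the 10 genes became 7 with DESeq2 and stayed 5 with its size factors, and fell to 2 with limma voom, with a robust fit or with no filter, 1 with only the groups compared, 1 without batch 3, and 0 with no batch term, within batch 1, within batch 2 or without the 3 richest vehicle libraries; the cause was not tested. Without those 3 libraries the change turned to 0.11 for Myl11 and 0.25 for Tnni2. Leaving out each library gave 0 to 6 calls, and 18 of 48 refits moved the count by over 1.5 times (female vehicle 1, 3, 4, 6 and 8, male vehicle 2, 3 and 4, female high-dose 1, 2, 3, 4, 7 and 8, male high-dose 1, 3, 4 and 6); calls for all genes then ran from 4 to 1462. The 15 other striated genes called lower became 20 with DESeq2, 2 with limma voom, only the groups compared or without batch 3, and 0 with no batch term, within batch 1, within batch 2 or without the 3 libraries, and 0 to 26 with a library left out. In duodenum the call of Ryr1 was lost (0) with limma voom, no batch term, no filter, within batch 1 and within batch 2. Of the 10 genes nearest the summed level, 6 were shared by Pearson's correlation. The replicate number as a block left 1 of 5 calls in stomach, 3 of the 15 and 0 in duodenum, but not every pair of the same number varied together (correlation of deviations -0.28 to 0.25, median 0.047, over 0.1 in 14 of 32 pairs), and 7 of 32 dosed libraries correlated best with the vehicle library of their own number, so the numbers were not taken to pair the samples. All genes called at 50 mg/kg in stomach (680) were 1025 with DESeq2, 1863 with limma voom, 1071 with the block, 420 with no filter, 347 with only the groups compared and 4 with no batch term; for 50 against 5 mg/kg, 107 became 318, 438, 226, 98, 176 and 0 in the same order, and 0 without batch 3 or within either batch. For all genes at 5 mg/kg, 0 became 28 with DESeq2 in stomach. In duodenum 0 became 18 with DESeq2, 3 with limma voom and 374 within batch 2. Sex contrasts, liver and duodenum at 5 mg/kg gave 0 called members under each alternative run. Low counts of C16h10orf71 and Actn3 limit their precision.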
